A study of Mus musculus with 11 samples.

Results

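Cancer-associated fibroblasts (CAFs) sorted from mouse mammary tumours differed from array to array in the signal of macrophage genes, and the 6 CAF arrays of a series of 11 were ranked by it. The rank was the mean log2 intensity of Lyz2, C1qa, C1qb, Csf1r and Cd68, and it placed 3 arrays high (D4, D8 and D9) and 3 low (D3, D10 and D11). The arrays were therefore chosen by measured values, and everything said here of high against low arrays is a description without a test. The stages do not divide evenly, since D4 and the low arrays D3 and D10 were labelled carcinoma, whereas D8, D9 and the low array D11 were labelled late carcinoma.

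The series profiled fibroblasts from female mice of the FVB/n strain on single-colour Affymetrix Mouse Gene 1.0 ST arrays. Transgenic mice carried MMTV-PyMT, a transgene in which a mammary tumour virus promoter drives the polyoma middle T oncoprotein in mammary epithelium, and they gave 3 hyperplasia arrays (D6, D7 and D12, age 4 weeks), 3 carcinoma arrays (age 9 weeks) and 3 late carcinoma arrays (age 12 weeks). Normal mammary glands of mice without the transgene gave 2 arrays (D2 and D5, age 8 weeks). Each array held RNA pooled from a cohort of mice, and age cannot be told apart from stage. Cells were sorted as positive for CD140a, the PDGF receptor alpha, and as lacking the product of Adgre1, a surface antigen of mouse macrophages. The gate thus aimed to leave macrophages out, and the purity of the sorted cells was not measured here. Per the labels the cells also lacked the epithelial antigen EpCAM. The study's methods name EpCAM for the validation sorts and not for the array sort.

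Fibroblasts build and remodel the collagen-rich matrix of a tissue and secrete growth factors and chemokines. Macrophages take up debris through scavenger, lectin and Fc receptors, make the C1q subunits of complement, depend on the receptor Csf1r and the transcription factor PU.1 (gene Spi1), and are a well-known source of the cytokine interleukin-1β. The NLRP3 inflammasome, a complex of NLRP3, the adaptor ASC (gene Pycard) and caspase-1, matures interleukin-1β and interleukin-18, and it is active in macrophages as well as in other cells.

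Before the values, some features of these arrays need stating. In every probe set the mean of normal D2 and late carcinoma D11 equalled the mean of the other 9 arrays, with a largest gap of 0.000144 log2 units in the sum, whereas the largest such gap was at least 3.55 for any other pair of arrays. The sources used here name no step that does this, and the low array D11 is therefore not an independent measurement. The difference between D11 and D2 was 0.44 log2 units in the macrophage score. Over the named probe sets D2 reached values down to 1.64, whereas the lowest values of the other arrays lay between 2.73 and 3.36. D4 stood apart from the other CAF arrays: 392 genes were at least 2-fold lower on D4 than on each of the 5 others, and 25 were at least 2-fold higher. The first principal component of the 6 arrays, which held 61.2% of the variance over 19938 genes, put D4 at 49.2 and the others between -30.5 and 7.9. Array medians lay between 5.28 and 5.39.

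The split itself rested on a clear interval. The macrophage score was 7.29 on D3, 7.09 on D10 and 7.30 on D11, and 8.60 on D4, 9.0 on D8 and 9.10 on D9, so that 1.3 log2 units separated the lowest high array from the highest low array. Means were 8.90 ± 0.26 (SD, n = 3) and 7.23 ± 0.12 (SD, n = 3). On normal and hyperplasia arrays the same score was 6.86 (D2), 5.64 (D5), 5.30 (D6), 5.58 (D7) and 6.10 (D12), below every CAF array. Each of the 5 genes separated the high from the low arrays, from C1qa, the complement C1q chain with the narrowest difference (1.20), to Cd68, a lysosomal glycoprotein of phagocytes (1.87). Lyz2, which encodes macrophage lysozyme, read 9.46, 9.47 and 9.30 on D3, D10 and D11 and 11.14, 11.36 and 11.31 on D4, D8 and D9. The ranks gave the same 6 assignments in all 10 other ways of computing the score.

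**Figure D1:**
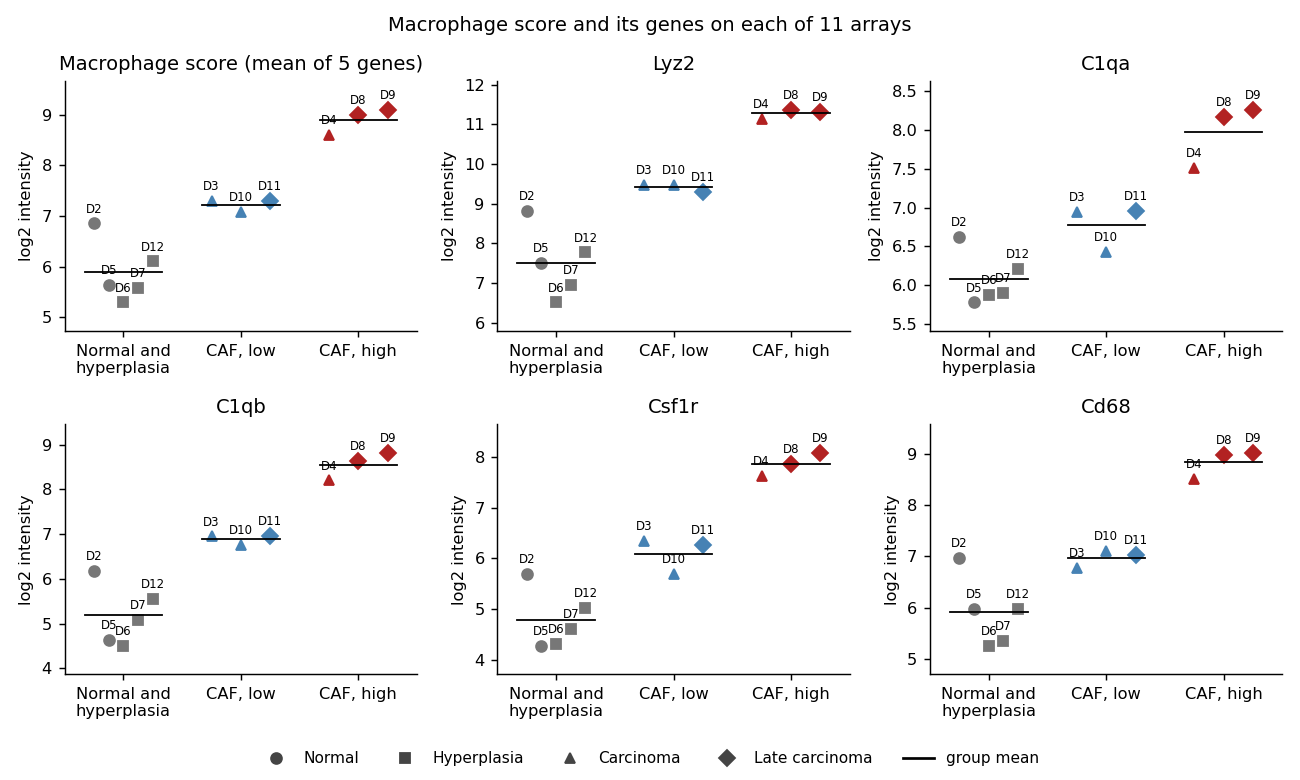
Macrophage score and its 5 genes (log2 intensity, vertical axes) on each of the 11 arrays, by class (horizontal axis); symbols give the stage and black lines the class means. The 3 high CAF arrays sit at 8.60 to 9.10 on the score, the 3 low ones at 7.09 to 7.30 and the normal and hyperplasia arrays at 5.30 to 6.86.

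A gene was counted as separated where all 3 high arrays lay on one side of all 3 low arrays and the means were at least 2-fold apart; 167 genes were higher (0.838% of 19938) and 136 lower (0.682%). Because the rule used these values, nothing is read from the size of the counts. With each array centred on its median the counts were 132 and 216. The higher genes were alike in both stages: their median difference was 1.35 within carcinoma (D4 minus the mean of D3 and D10) and 1.26 within late carcinoma (mean of D8 and D9 minus D11), and 100 of the 167 were at least 2-fold apart without overlap in each stage. The lower genes were not alike, with medians of -1.97 within carcinoma and -0.57 within late carcinoma, and 9 of the 136 reached 2-fold in each stage. Leaving out D4 gave 160 higher genes (0.802%), among them 139 of the 167, but 57 lower genes (0.286%), among them 49 of the 136. The count of lower genes was also 68 without D10, 280 without D8 and 303 without D9. Without D11, the array tied to D2, 215 genes were higher and 249 lower.

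**Figure D2:**
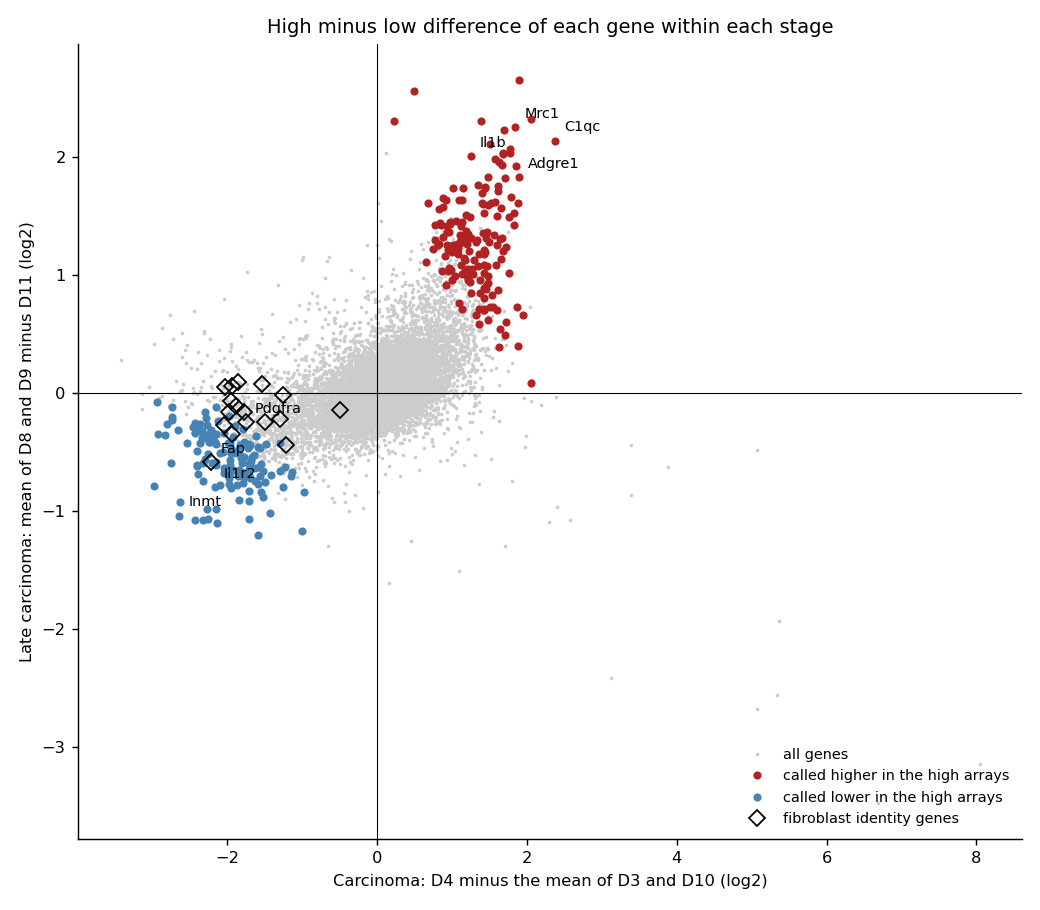
Difference of each gene between high and low arrays within carcinoma (horizontal axis, log2) and within late carcinoma (vertical axis, log2); red and blue points are the 167 higher and 136 lower genes, grey points all genes and diamonds the fibroblast identity genes. Red points lie at like distances along both axes, whereas blue points and diamonds lie further out along the carcinoma axis, which is the D4 axis.

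The genes named here were the 12 with the largest positive differences among those without overlap and with the same sign within both stages and without D4. They were, in order, C1qc, Cd209f, Lyz1, Mrc1, Adgre1, Cd209d, Atp6v0d2, F13a1, Cybb, Wfdc17, Lilr4b and Il1b. Some genes outside that rule had larger differences, such as Pip (2.75) and Bpifa2 (2.49), for which the classes overlapped. C1qc, the third chain of C1q, read 5.63, 5.19 and 6.08 on D3, D10 and D11 and 7.79, 8.06 and 8.37 on D4, D8 and D9, a difference of 2.44. Mrc1, the mannose receptor CD206, read 6.05, 5.99 and 6.04 on the low arrays and 7.86, 8.07 and 8.52 on the high ones, a difference of 2.13. For both genes every high array lay above every low array by more than the range within either class. Adgre1, which encodes the macrophage antigen that the sort selected against, read 5.48, 5.18 and 5.74 on D3, D10 and D11 and 7.23, 7.49 and 7.66 on D4, D8 and D9. It was thus 1.99 log2 units higher on the arrays of the high class, whereas the normal and hyperplasia arrays lay between 3.73 and 5.07.

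Several of these genes belong to the surface and secretory equipment of phagocytes. Cd209f and Cd209d, mouse relatives of the C-type lectin DC-SIGN, were 2.33 and 1.98 higher, and the immune receptor gene Lilr4b was 1.91 higher. Cybb, the catalytic subunit of the phagocyte NADPH oxidase, was 1.94 higher, and F13a1, the coagulation factor XIII A chain carried by monocytes and macrophages, was 1.95 higher. Wfdc17, a small whey acidic protein-like peptide, read 8.19, 8.82 and 8.55 on D3, D10 and D11 and 10.36, 10.28 and 10.65 on D4, D8 and D9. Near-identical family members can share probes, so Lyz1 and Lyz2, Cd209d and Cd209f, and Lilr4b and Lilrb4a were treated as possibly not separable.

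Spi1, the gene of PU.1, read 6.10, 5.96 and 6.16 on D3, D10 and D11 and 7.74, 7.84 and 8.13 on D4, D8 and D9, a difference of 1.83. PU.1 binds DNA around the letters GGAA, and the longer core GAGGAAGT (ACTTCCTC on the other strand) was chosen after these values were seen and searched on both strands in the 250 bases before each RefSeq gene start (build GRCm38.p6). The core stood in 425 of 19177 windows of all genes (2.22%), in 13 of 139 windows of the genes higher on the high arrays (9.35%) and in 2 of 116 windows of the lower genes (1.72%). Windows were found for 119 of the 167 higher genes and 94 of the 136 lower ones. A match says that these letters are present, not that the factor binds there. Candidates for display were the separated, higher genes among those picked by the naming rules, with the windows of a single chromosome left aside. Other described genes were not candidates. The candidates with a match were C1qc, the matrix protease gene Mmp12 and Vav1, a signalling protein of blood cells. Their windows are shown with the core in capitals and each sequence on its gene's own strand. They are chr4:136892915-136893164 (minus strand) for C1qc, chr9:7344147-7344396 (plus strand) for Mmp12 and chr17:57278850-57279099 (plus strand) for Vav1.
C1qc: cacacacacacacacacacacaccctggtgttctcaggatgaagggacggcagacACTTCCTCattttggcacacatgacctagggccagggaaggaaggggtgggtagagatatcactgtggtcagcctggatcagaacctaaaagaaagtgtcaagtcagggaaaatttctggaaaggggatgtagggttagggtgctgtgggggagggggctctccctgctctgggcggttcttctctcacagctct
Mmp12: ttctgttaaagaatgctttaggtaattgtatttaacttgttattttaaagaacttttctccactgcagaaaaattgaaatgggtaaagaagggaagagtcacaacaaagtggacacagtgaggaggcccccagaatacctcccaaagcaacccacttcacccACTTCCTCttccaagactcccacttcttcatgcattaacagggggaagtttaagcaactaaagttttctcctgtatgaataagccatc
Vav1: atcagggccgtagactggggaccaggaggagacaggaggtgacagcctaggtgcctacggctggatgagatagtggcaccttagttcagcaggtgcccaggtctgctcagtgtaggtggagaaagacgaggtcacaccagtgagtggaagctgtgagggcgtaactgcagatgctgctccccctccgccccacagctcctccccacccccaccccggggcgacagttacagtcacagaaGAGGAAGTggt
The core began 195 bases before the gene start in C1qc, 88 in Mmp12 and 11 in Vav1, and it lay on the gene's own strand in Vav1 only. Mmp12, macrophage elastase, read 5.07, 5.06 and 5.24 on D3, D10 and D11 and 6.54, 6.65 and 6.55 on D4, D8 and D9. Vav1 read 6.0, 5.64 and 5.56 on the low arrays and 7.14, 6.78 and 6.89 on the high ones.

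Macrophage genes outside the score moved widely with it. Over 4 lists of macrophage and monocyte genes, 26 of 42 measured members were separated and higher on the high arrays, 1 was lower, and the median difference was 1.20, beside 0.00 over all genes. Over all genes 0.838% were separated and higher and 0.682% separated and lower, which is the background for each list below. The mean level of these 42 genes was 6.04 on D3, 5.97 on D10 and 6.13 on D11, and 7.02 on D4, 7.14 on D8 and 7.23 on D9. In the list of C1q and Fc receptor genes 7 of 10 were higher, including C3ar1, the receptor for complement C3a (1.89), Tyrobp, the adaptor DAP12 (1.76), and Trem2, a lipid-sensing receptor (1.40). In the list of scavenger and surface genes 11 of 16 were higher, including Lilrb4a (1.69), the membrane protein Ms4a7 (1.62), the folate receptor Folr2 (1.61) and the scavenger receptor Msr1 (1.54).

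The lists were not uniform. Of 10 macrophage lineage factors and effector genes 4 were separated and higher, with a median of 0.63. Arg1, the arginase of alternatively activated macrophages, read 5.55, 5.68 and 6.51 on D3, D10 and D11 and 7.57, 7.35 and 6.98 on D4, D8 and D9, so that its difference was 1.95 within carcinoma and 0.66 within late carcinoma. Nos2, the inducible nitric oxide synthase, Chil3 and the scavenger receptor Marco differed by -0.12, -0.01 and -0.06. Each of them read between 3.91 and 4.79 on every array, a low level at which a difference may not show. Cd36, a lipid scavenger receptor that adipocytes and endothelium also make, differed by -0.05. Among monocyte genes, Itgam (CD11b), Ccr2 and Cx3cr1 were 1.63, 1.32 and 1.11 higher, whereas Plac8 was lower, at 8.80, 8.74 and 8.29 on D3, D10 and D11 and 6.81, 7.86 and 7.83 on D4, D8 and D9. Which of the sorted cells held these transcripts was not tested. In these pools more cells that hold them and more of their RNA per cell cannot be told apart.

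Lists of other leukocytes moved with the score to different degrees, and some did not move with it. Of 12 pan-leukocyte genes 5 were higher and all 12 differences were positive (median 0.98); Itgb2, the β2 integrin, led with 1.34, and Ptprc (CD45) differed by 0.71 with overlap between the classes. Of 8 measured MHC class II genes 1 was higher, Cd74, the invariant chain (1.14). The 12 neutrophil, 11 T and NK cell and 5 B cell genes had no separated member, with medians of 0.18, 0.24 and 0.18. Without D4 these medians were 0.16, -0.11 and -0.05. The T and NK list mean was 6.03, 6.04 and 5.25 on D3, D10 and D11 and 6.75, 5.71 and 5.57 on D4, D8 and D9. The classes thus overlapped, as they did for the B cell list mean. Among 10 dendritic cell genes 3 were higher, namely Clec10a (1.83), Itgax (1.29) and Cd209a (1.14), which macrophages can also express. Xcr1, Clec9a and Zbtb46 differed by -0.14, 0.07 and -0.15. Each of them read below the median gene level of 5.64 on every CAF array, where a difference may not show. Of 7 mast cell genes Cpa3 (1.37) and Kit (1.04) were higher, and Cpa3 differed by 0.50 within carcinoma and 2.56 within late carcinoma.

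Receptors and ligands of innate immunity showed the same unevenness between genes. Among 11 Toll-like receptor genes 3 were higher, the endosomal receptors Tlr7 (1.66), Tlr8 (1.53) and Tlr13 (1.06), and Tlr4, the endotoxin receptor, differed by -0.37. Among 16 chemokine genes 4 were higher, namely Ccl6 (1.83), Cxcl2 (1.24), Ccl9 (1.24) and Ccl3 (1.22). Of the 9 ligands of CSF1R and attractants of monocytes, Ccl8 alone was separated; it read 6.37, 6.66 and 7.14 on D3, D10 and D11 and 7.18, 8.0 and 8.51 on D4, D8 and D9. Csf1 and Il34, the ligands of CSF1R, were not separated, and their differences of -0.61 and -0.41 were carried by D4, where Csf1 read 8.05 against 9.03 to 9.52 on the other CAF arrays and Il34 read 5.56 against 7.03 to 7.52. Ccl2, the ligand of Ccr2, read 7.84, 8.29 and 8.53 on the low arrays and 6.65, 8.33 and 8.71 on the high ones, so that D4 was lowest and the classes overlapped.

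**Figure D3:**
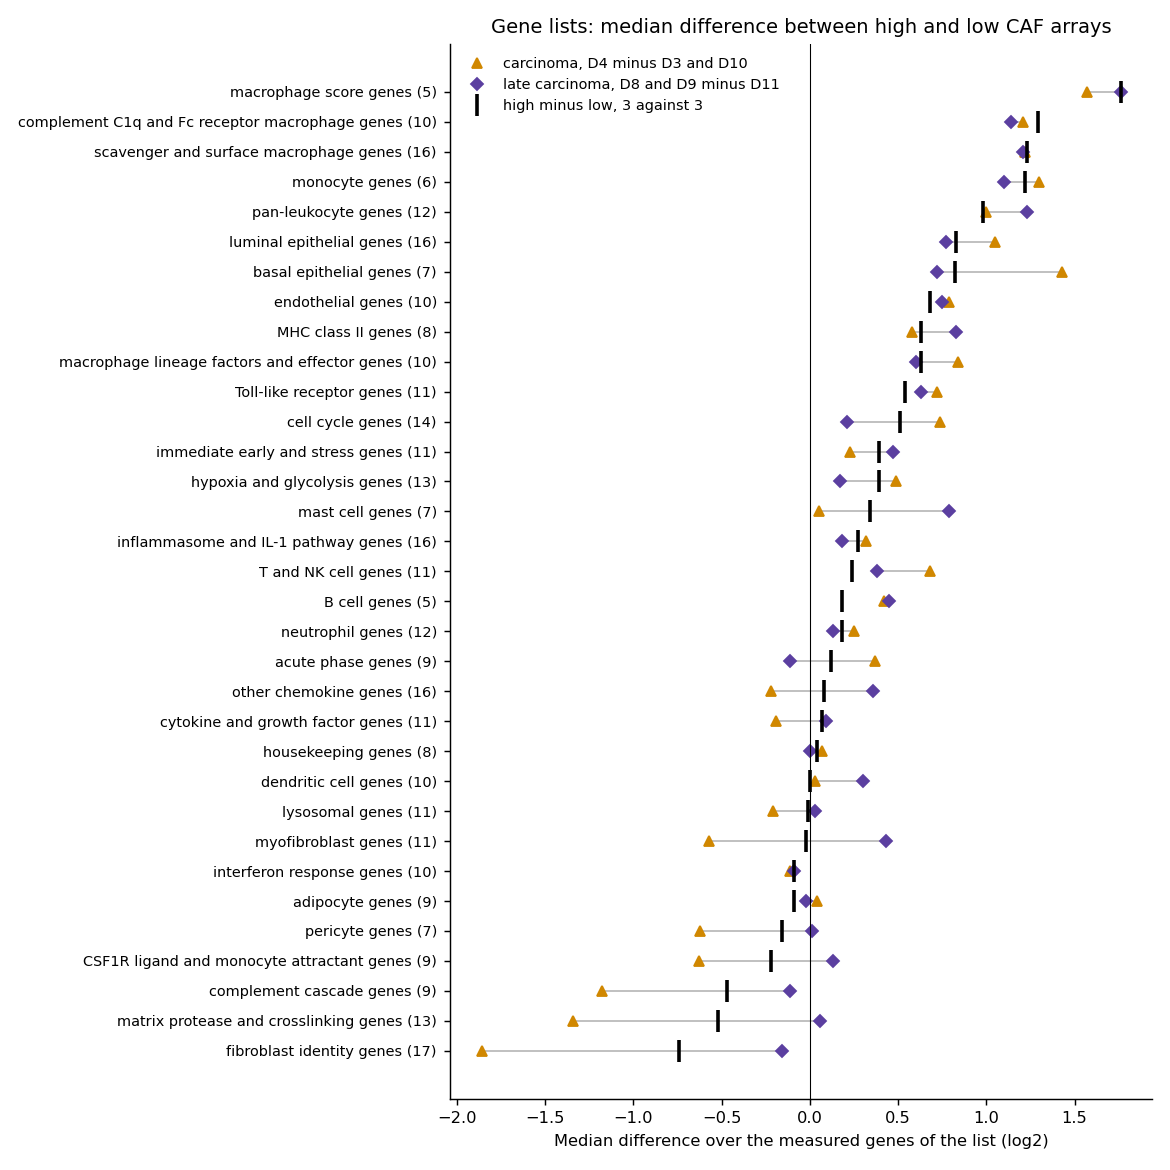
Median difference between high and low CAF arrays (log2, horizontal axis) for 33 gene lists with at least 5 measured genes (vertical axis, number measured in parentheses), over 3 against 3 arrays (bars), within carcinoma (triangles) and within late carcinoma (diamonds). Macrophage lists have like medians in both stages (1.21 and 1.14 for C1q and Fc receptor genes), whereas fibroblast identity genes have -1.86 within carcinoma and -0.16 within late carcinoma.

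By the same rule as for the 12 highest, the 12 genes with the most negative differences were Inmt, Gpr165, Akr1c14, Dmrt2, Zim1, Galnt15, Far2, Fgf10, Tmem100, Il1r2, Nova1 and Scg3, from -2.25 to -1.53. Inmt, a methyltransferase of indole amines, read 9.90, 9.85 and 7.87 on D3, D10 and D11 and 7.24, 7.46 and 6.19 on D4, D8 and D9. Fgf10, a fibroblast growth factor that acts on epithelium, read 9.38, 9.84 and 8.91 on the low arrays and 7.34, 8.01 and 7.83 on the high ones. D11 was the lowest of the low arrays for each of the 12, so the classes were nearer to each other in late carcinoma. Il1r2, the decoy receptor that binds interleukin-1 without signalling, read 8.82, 9.21 and 7.91 on D3, D10 and D11 and 6.86, 7.10 and 7.12 on D4, D8 and D9.

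Fibroblast identity genes were lower on the high arrays, and by far the most on D4. All 17 measured members had negative differences (median -0.74), and 12 of them did not overlap between the classes. Among all 19938 genes, 3013 were lower on the high arrays without overlap. Of the 12 members, 1 alone also reached 2-fold. This was Fap, the fibroblast activation protein, at 10.05, 10.10 and 9.82 on D3, D10 and D11 and 7.87, 9.24 and 9.22 on D4, D8 and D9. The mean of the 17 genes was 8.98 on D4, 10.35 on D8 and 10.37 on D9, against 10.65, 10.68 and 10.52 on D3, D10 and D11. Pdgfra, which encodes the CD140a antigen used for sorting, read 10.90, 11.01 and 10.80 on the low arrays and 9.21, 10.60 and 10.50 on the high ones. The collagen gene Col1a1 read 9.35 on D4 and 11.08 to 11.27 on the 5 other CAF arrays. Without D4 the median difference of the list was -0.17 and no member was separated. Matrix protease and crosslinking genes behaved likewise, with medians of -1.34 within carcinoma and 0.06 within late carcinoma; Timp1, an inhibitor of matrix proteases, read 6.39 on D4 and 9.0 to 9.65 elsewhere.

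Epithelial genes also went with the score, without reaching 2-fold for most. All 16 luminal epithelial genes had positive differences (median 0.83) and 3 were separated, the keratin genes Krt7 (1.12) and Krt19 (1.08) and the transcription factor Elf3 (1.04). The luminal list mean was 8.24, 7.84 and 7.93 on D3, D10 and D11 and 9.05, 8.71 and 8.69 on D4, D8 and D9. Epcam, whose antigen the sort selected against per the labels, read 9.29, 8.91 and 8.69 on the low arrays and 9.91, 9.62 and 9.57 on the high ones. Of 7 basal epithelial genes the keratin genes Krt17, Krt5 and Krt14 were separated (1.15, 1.08 and 1.04). Of 10 endothelial genes 9 had positive differences of up to 0.99 (Emcn), and Tek, the angiopoietin receptor, was separated and lower (-1.28). The endothelial list mean overlapped between the classes. It was 7.11, 6.46 and 6.17 on D3, D10 and D11 and 7.35, 6.89 and 6.87 on D4, D8 and D9. Cell cycle genes had a median of 0.51 with all 14 positive and none separated, led by Aurkb (0.80) and Top2a (0.75). The part of these cell types in the differences of other genes was not tested. Housekeeping genes had a median of 0.04.

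**Figure D4:**
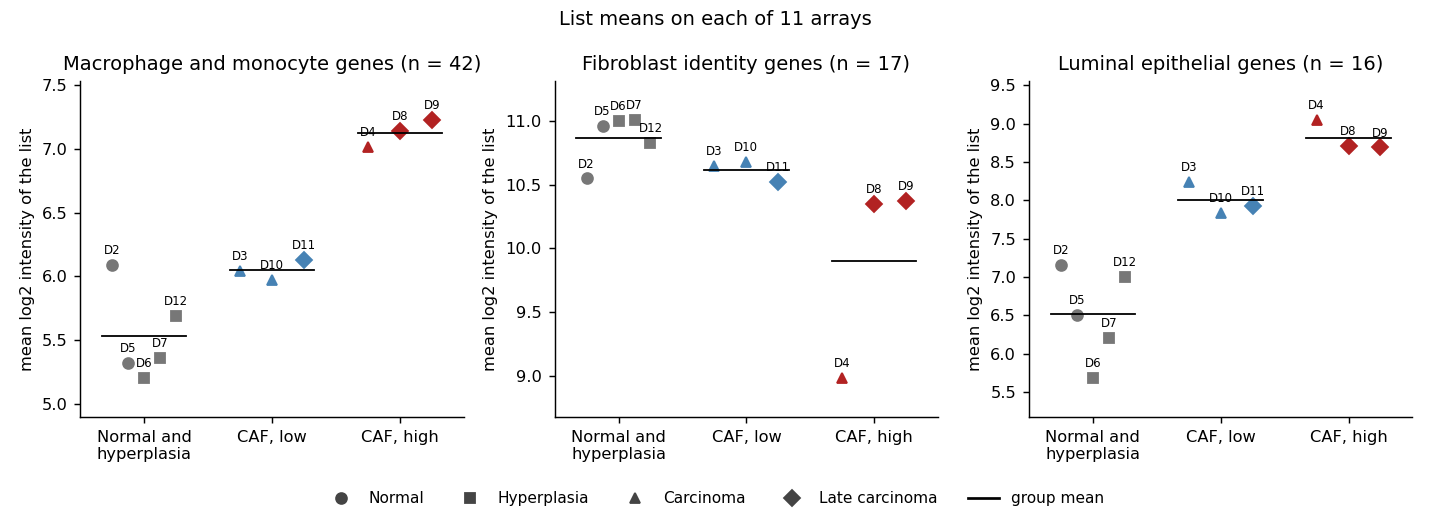
Mean log2 intensity of 42 macrophage and monocyte genes, 17 fibroblast identity genes and 16 luminal epithelial genes (vertical axes) on each of the 11 arrays by class (horizontal axis); symbols give the stage and lines the class means. Fibroblast genes are lowest on D4 (8.98 against 10.35 to 10.68 on the other CAF arrays), with D8 and D9 just below the low arrays, whereas macrophage genes are high on D4, D8 and D9 alike.

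Among 16 inflammasome and interleukin-1 genes 2 were separated and higher, Il1b and Il1a, and 1 was separated and lower, Il1r2. Il1b, encoding interleukin-1β, read 5.60, 5.19 and 5.80 on D3, D10 and D11 and 6.65, 7.67 and 7.96 on D4, D8 and D9, a difference of 1.90. Il1a read 4.10, 3.98 and 4.90 on the low arrays and 5.26, 5.93 and 5.97 on the high ones, a difference of 1.39. Both cytokine genes were separated, with D4 the lowest of the high arrays. Nlrp3, the sensor of the complex, read 3.97, 4.0 and 4.30 on D3, D10 and D11 and 4.67, 4.68 and 4.84 on D4, D8 and D9. The classes did not overlap, and the difference of 0.64 was under 2-fold. On normal and hyperplasia arrays Nlrp3 read 3.80 to 4.08 and Il1a 3.70 to 4.03, against a median gene level of 5.64. The differences of these dim genes are thus read near the low end of the scale. Casp1 differed by 0.44 and the adaptor gene Pycard by 0.38, both without overlap. P2rx7, the ATP receptor upstream of NLRP3, read 7.44, 7.58 and 7.37 on the low arrays and 7.63, 7.76 and 7.80 on the high ones, a difference of 0.27. Il18 went the other way, at 6.49, 7.14 and 6.32 on D3, D10 and D11 and 6.06, 5.82 and 6.10 on D4, D8 and D9. Il1rn, the receptor antagonist, differed by 0.56, and Myd88, the adaptor of interleukin-1 and Toll-like receptors, by 0.14.

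**Figure D5:**
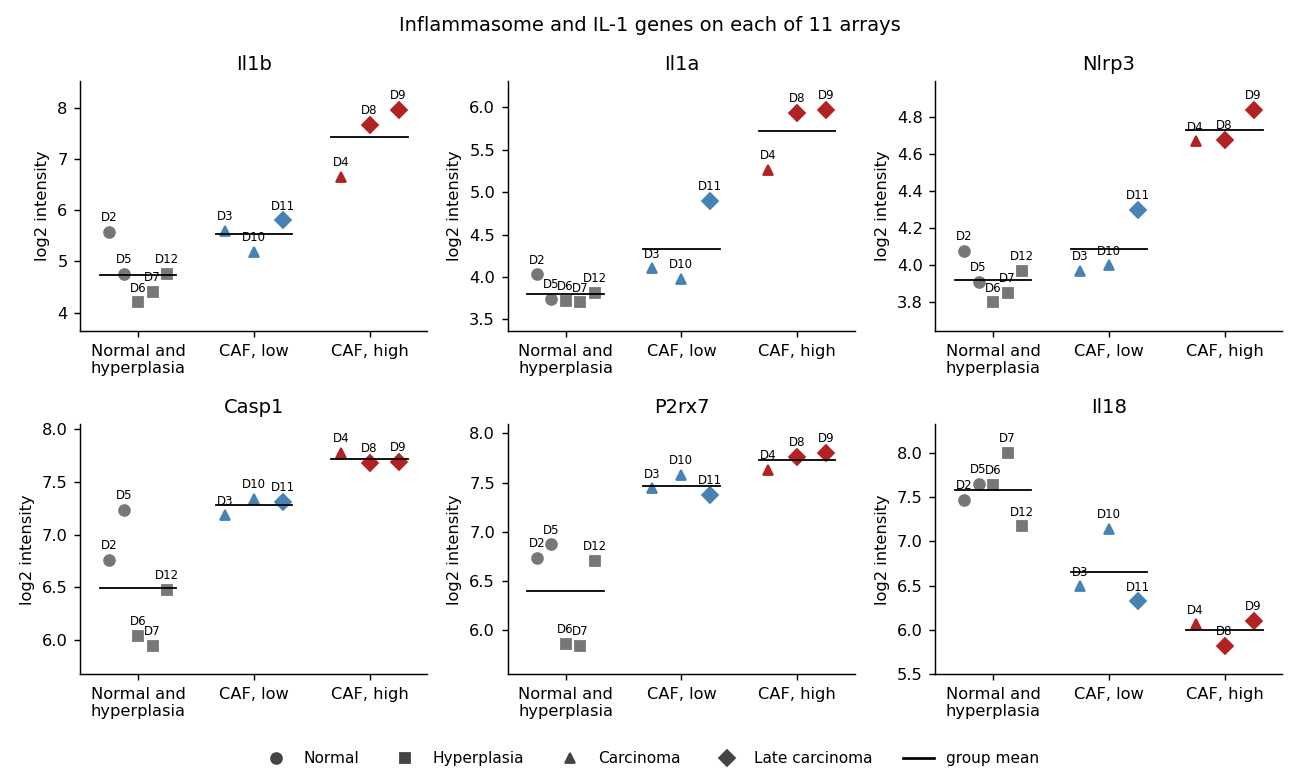
Log2 intensity (vertical axes) of 6 inflammasome and interleukin-1 genes on each of the 11 arrays by class (horizontal axis); symbols give the stage and lines the class means. Il1b, Il1a and Nlrp3 on the low CAF arrays lie below the high ones, with D11 the highest of the low. P2rx7 lies at 7.37 to 7.80 on the 6 CAF arrays and at 5.84 to 6.87 on the normal and hyperplasia arrays.

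The comparison of all 6 CAF arrays with the 5 normal and hyperplasia arrays does not use the split. Over all 11 arrays limma called 2402 genes higher in CAFs (12%) and 2559 lower (12.8%); with each array centred on its median it called 1948 higher and 5114 lower. Among the 5 score genes all rose. Lyz2 was 2.83 ± 0.52 (SE) higher in CAFs (limma, adjusted p = 0.0035). Of the C1q and Fc receptor genes 9 of 10 rose, of the scavenger and surface genes 10 of 16 rose and 1 fell, and of the luminal epithelial genes 15 of 16 rose.

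The same comparison was repeated without either class of CAF arrays. These fits leave out arrays chosen by their values, so a gene that was higher on the high arrays must differ less without them, and their values are descriptions with no test. Without D4, D8 and D9 limma called 1155 genes higher (5.79%) and 753 lower (3.78%). Without D3, D10 and D11 it called 2963 higher (14.9%) and 2581 lower (12.9%). The median difference between CAFs and normal and hyperplasia fibroblasts over the 10 C1q and Fc receptor genes was 1.40 over all arrays, 0.75 without the high arrays and 2.14 without the low ones. Over the 16 luminal epithelial genes it was 2.06, 1.67 and 2.42 in the same order.

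Inflammasome and interleukin-1 genes divided in the comparison over all arrays, where 6 of 16 rose and 3 fell. Il1b was 1.74 ± 0.50 (SE) higher in CAFs (limma, adjusted p = 0.0278), and Il1a was 1.22 ± 0.36 (SE) higher (limma, adjusted p = 0.0282). Both calls lay near the threshold and were lost when any 1 of several arrays was left out. The difference then stayed between 1.44 and 2.0 for Il1b and between 1.03 and 1.43 for Il1a. Limma's adjusted p for Il1b was 0.051 without D12, 0.0671 without D6, 0.0653 without D7, 0.0569 without D8 and 0.0511 without D5. For Il1a it was 0.0517 without D12, 0.0596 without D6, 0.0617 without D7, 0.0555 without D8, 0.0537 without D9 and 0.0543 without D5. With D2 and D11 both left out, limma's adjusted p was 0.0319 for Il1b and 0.0629 for Il1a. With a term for these tied arrays it was 0.0416 for Il1b and 0.0421 for Il1a. Nlrp3 was 0.49 ± 0.16 (SE) higher (limma, adjusted p = 0.0461), and this call was kept without D10 or without D3 and lost without any 1 of the other 9 arrays, with limma's adjusted p from 0.056 (without D2) to 0.0981 (without D6) and 0.0655 with a term for the tied arrays.

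P2rx7 was 1.20 ± 0.20 (SE) higher in CAFs (limma, adjusted p = 0.00201), and Casp1 was 1.01 ± 0.22 (SE) higher (limma, adjusted p = 0.00792). Il18 fell by 1.26 on the log2 scale (limma, adjusted p = 0.00249) and Il1r2 fell by 2.12 (limma, adjusted p = 0.00493). Pycard was 0.34 ± 0.18 (SE) higher, short of the threshold (limma, adjusted p = 0.176).

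Without the high arrays and without the low arrays, as descriptions, the difference of Il1b was 0.79 and 2.69, that of Il1a 0.53 and 1.92 and that of Nlrp3 0.17 and 0.81. For these genes the value without the high arrays was the smaller one, as the choice of the arrays fixes. The corresponding differences were 0.79 and 1.22 for Casp1, 1.06 and 1.33 for P2rx7, 0.15 and 0.53 for Pycard, -0.93 and -1.59 for Il18 and -1.31 and -2.93 for Il1r2.

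Stage was compared over the same arrays. In the comparison of late carcinoma with carcinoma limma called 0 genes, with 1124 at an unadjusted p under 0.05 and a smallest adjusted p of 0.37; the test that the methods name called 0 as well after the same adjustment, and 89 at the threshold of the methods, an unadjusted p under 0.05 with a fold over 1.5. Without D11 limma called 2. With weights for the arrays, which let limma give less weight to an array far from its group, it called 1301. The closest pair of CAF arrays was D8 and D9, both high and late (distance 0.0042, 1 minus Pearson's r across genes, which are not independent), and D3 and D10, both low and carcinoma, were at 0.0063. D4 lay 0.0251 from D8 and 0.0248 from D9, and 0.0393 and 0.05 from D3 and D10, the arrays of its own stage.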

How the data were processed

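The values were the authors' own, log2 intensities of 35399 probe sets on 11 arrays, deposited as 1 table that per the labels and the study's methods were normalised by RMA, the robust multi-average method, in the Partek software (version 6.5). No genome build, scan date or batch is given in the sources used here, and the array images were not analysed here. A probe set was named where the platform annotation gives 1 symbol (21789); those with several (1621) or none (11989) were left out, and the brightest probe set of 999 genes with more than 1 was kept, which left 19938 genes. Means of log2 values were taken, so every difference is a log2 difference. Values of different genes were not set against each other, and the number of arrays limits the precision.

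CAF (6 arrays) were compared with normal and hyperplasia fibroblasts (5) in limma 3.58.1 (R 4.3.3; lmFit, eBayes, two-sided), and late carcinoma with carcinoma in a fit of 4 stages, with Benjamini-Hochberg adjustment over all genes and a threshold of 0.05. P-values measure the spread between arrays, each a cohort, within the fitted groups. In the first comparison that spread also holds stage and age and, among normal and hyperplasia arrays, the transgene. In data simulated on the first comparison, limma called 83.3% of genes changed 1.5-fold, 90% of those changed 2-fold and 100% of those changed 4-fold. Genes described were the 12 with the largest differences in each direction among those without overlap and with the same sign within both stages and without D4 (predicted genes, clones and gene segments left aside), the score genes, up to 4 members of each list, and inflammasome and sort genes; other list members given were picked after their values were seen. The 34 lists hold 386 symbols, of which 352 were measured. Members, lists and alternatives were chosen with earlier results of these data known. The alternatives were centred or quantile normalized arrays, removal of dim genes, every probe set, other fold thresholds, stage as a block, single stages, other scores, one-way ANOVA (the methods' test), limma-trend, array weights, a term for D2 and D11, fits without them or without 1 class of CAF arrays, and each array left out in turn. Promoter windows are RefSeq sequences, matched by symbol.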

Additional observations from a re-analysis of the deposited data

Results flagged for a closer look

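D4 lay far from the other 5 CAF arrays in 6 of 72 values checked (8.33%). Chance alone flags about 5% of independent, unselected groups. These values share genes, and some genes were picked for separating the classes, so the share cannot be set against that rate. The measure is the gap from the extreme array to its neighbour divided by the whole range. D4 was lowest in the mean of fibroblast identity genes (8.98 against 10.35 to 10.68, ratio 0.806), of matrix protease and crosslinking genes (7.73 against 8.96 to 9.27, ratio 0.801) and of complement cascade genes (7.82 against 8.64 to 8.82, ratio 0.819), and in Pdgfra (9.21 against 10.50 to 11.01, ratio 0.715). It was highest in the mean of acute phase genes (8.22 against 7.75 to 7.92, ratio 0.631) and of 2 erythroid genes (4.77 against 4.41 to 4.50, ratio 0.755).

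In 8 lists the mean on every high array lay on one side of the low arrays within carcinoma and on the other side within late carcinoma, and these differences between the stages were not tested. D4 was below D3 and D10 while D8 and D9 were above D11 for lysosomal genes (-0.26 and 0.11), pericyte genes (-0.19 and 0.25), myofibroblast genes (-0.53 and 0.52), matrix protease and crosslinking genes (-1.32 and 0.26), CSF1R ligand and monocyte attractant genes (-0.60 and 0.23), other chemokine genes (-0.20 and 0.53) and cytokine and growth factor genes (-0.35 and 0.21). The order was the opposite for acute phase genes (0.38 and -0.08).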

How the results depend on the processing

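The assignment of the 6 CAF arrays was the same under all 10 alternatives. The count of genes higher on the high arrays was 542 in the carcinoma arrays alone, 756 at 1.5-fold and 4 at 4-fold, and it ranged from 147 to 232 with 1 array left out. The count of lower genes was 216 with centred arrays, 248 with stage as a block, 881 in the carcinoma arrays alone, 22 in the late carcinoma arrays alone, 610 at 1.5-fold and 1 at 4-fold, and it ranged from 57 to 303 with 1 array left out. For CAFs against normal and hyperplasia fibroblasts limma called 4961 genes in all, 1908 without the macrophage-high CAF arrays and 3703 to 5427 with 1 array left out; the total stayed within 1.5 times under the other alternatives, but with centred arrays its split went from 2402 higher and 2559 lower to 1948 and 5114, so that the lower calls alone moved further. For late carcinoma against carcinoma the count of 0 became 1301 with array weights and ranged from 0 to 2 with 1 array left out. The cause of these changes was not tested. In the comparison of CAFs with normal and hyperplasia fibroblasts, alternatives were computed for 38 named genes. Of their values, 680 kept their side of the threshold, 105 lost it and 9 gained it. Of the genes called over all arrays, 0 turned their direction. Turns of genes not called were not counted. Inmt went from -0.88 to 0.24 without the high arrays, and Scg3 from 0.36 to -0.41 without the low arrays. Of the alternative values of named genes between high and low arrays, 1587 moved by less than the spread between arrays and 151 by more. Some genes turned their direction when D4 was left out. Timp1 differed by -0.84 over the 6 CAF arrays and by 0.16 without D4, and Tnc, a matrix glycoprotein gene, by -0.38 and 0.40. No paired analysis was possible because the array numbers are unique to each array and shared by no groups. With 3 arrays in a class, and 1 of them tied to a normal array, small differences were not detectable.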

Other observations

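The genes that ranged most widely over the 6 CAF arrays did not follow the macrophage score, and they were looked at after their values were seen. The 12 widest had ranges from 3.78 to 8.12 log2 units, beside a median range of 0.34 over all genes, and 0 of the 12 were separated between high and low arrays. Several encode products known from saliva or other exocrine secretions. Bpifa2, a secretory protein of the parotid gland, read 4.56, 4.73 and 10.36 on D3, D10 and D11 and 12.68, 4.58 and 9.85 on D4, D8 and D9, so that D4, D9 and D11 were high and the other three arrays low. Mucl2, a mucin-like protein, read 11.02, 12.29 and 10.41 on D4, D9 and D11 and 4.61, 6.68 and 4.66 on D3, D10 and D8. Pip, the prolactin-induced protein of exocrine glands, read 10.37, 10.64 and 9.44 on D4, D9 and D11 and 4.85, 5.74 and 7.28 on D3, D10 and D8.

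The same arrays stood out for Chia1, an acidic chitinase, at 11.06, 7.09 and 9.14 on D4, D9 and D11 and 4.24 to 4.41 elsewhere among CAFs. Smr3a, a submaxillary gland androgen-regulated protein, read 10.25, 6.19 and 8.16 on D4, D9 and D11 and 4.85 to 5.02 on the other CAF arrays, and Cst10, a cystatin, read 10.30, 6.05 and 8.35 there and 5.19 to 5.30 on the others. Normal D5 and the 3 hyperplasia arrays read 4.40 to 5.68 for Bpifa2, whereas D2, the array tied to D11, read 1.99. This set of arrays crosses both the macrophage classes and the stages. The values were not put to a test, and their source was not tested.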
